A study of Mus musculus with 17 samples.

Results

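The effect of deleting Atr from mouse cerebellum was compared between a genetic background that lacks the cell-death genes Bax and Bak and one that lacks p53, in a 2 x 2 arrangement of 4 genotypes. Members were chosen by depth: 16 of the 17 RNA-seq libraries entered, and the library left out held 13439 estimated counts against 42634661 to 99812469 in those kept. All mice were C57BL/6 at postnatal day 3, and RNA came from cerebellum after the meninges were taken off. The Bax Bak control group (4 libraries) carried Math1-Cre with Bax-loxP/loxP and Bak--/-, and its Atr-deleted partner (5 libraries) carried Atr-loxP/loxP as well. The p53 control group (3 libraries) carried Math1-Cre with p53-loxP/loxP, and its Atr-deleted partner (4 libraries) again carried Atr-loxP/loxP as well. Every group carried Math1-Cre, which recombines in granule neuron progenitors. Cells of the tissue without Cre activity kept the loxP-flanked genes, whereas Bak was absent from all cells of the Bax Bak mice. No group had normal Bax and Bak together with normal p53.

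Atr is the kinase that senses stalled replication forks and, through Chk1, holds back origin firing and mitotic entry until the fork is repaired. Persistent damage stabilises p53, which switches on genes of cell-cycle arrest, repair and death; Bax and Bak act further on, opening the mitochondrial outer membrane when a cell dies. Granule neuron progenitors divide in large numbers in the first postnatal days under Sonic hedgehog, so replication stress falls on them in particular. In the Bax Bak background p53 is present and that route to death is blocked, and in the p53 background p53 itself is gone. The names p53-dependent and p53-independent, given to classes of genes below, are working names only, because the backgrounds differ in Bax and Bak as well as in p53.

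Transcript counts were summed to genes, and 18189 genes were tested in 1 fit of the 4 groups. Levels are given as CPM, the count scaled to the size of the library, and effects as log2 fold changes ± standard error (SE). P-values come from the quasi-likelihood test of edgeR and were adjusted by the Benjamini-Hochberg method. The labels name separate samples and not separate litters or animals, so each p-value reflects only how far these samples spread, and that spread may be technical. In these bulk libraries fewer cells of a type and less RNA per cell cannot be told apart. The sample names carry number series: all Atr-deleted Bax Bak libraries belong to series 1836 and their controls to 100019 and 1842, so series and Atr genotype cannot be told apart there. In the p53 background all 4 Atr-deleted libraries and 1 control belong to series 1843 and the other 2 controls to 1845. Replicate 2 of the Atr-deleted p53 group stood apart, with 97360 CPM of mitochondrially encoded RNA against 24480 to 34420 in the rest of its group. The first principal component (35.8% of variance) separated the backgrounds, at -59.6 to -6.23 for Bax Bak and 41.7 to 62.9 for p53 libraries.

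Markers of the granule lineage were present in all 16 libraries, with Atoh1 at 15.2 to 30.7, Pax6 at 141 to 295 and Zic1 at 748 to 1349 CPM. The deleted genes Bax, Bak1 and Trp53 stood apart between the backgrounds, and no test separated the Atr genotypes. Atr itself stood at 44.3, 42.8, 48.01 and 38.4 CPM in the Bax Bak controls and at 41.3, 41.3, 37.99, 43.5 and 35.8 CPM in the Atr-deleted libraries of that background. With p53 deleted it stood at 38.2, 36.4 and 36.3 CPM in controls and at 36.1, 38.5, 33.7 and 40.2 CPM in the Atr-deleted libraries. Both pairs of groups overlapped, with means of 43.4 ± 3.99 (SD, n = 4) against 39.97 ± 3.07 (SD, n = 5) and of 37.0 ± 1.11 (SD, n = 3) against 37.1 ± 2.83 (SD, n = 4). Two-sided exact permutation tests gave p = 0.190 (n = 5 and 4) and p = 0.971 (n = 4 and 3), where the smallest p these designs allow is 0.0159 and 0.0571. Gene-level counts therefore do not check the Atr label, and reads outside the deleted exons and from cells without Cre are both counted in them. Bak1, the gene of Bak, stood at 0.365 ± 0.152 CPM (SD, n = 4) in the Bax Bak controls and 39.7 ± 2.01 CPM (SD, n = 3) in the p53 controls. Bax was at 34.0 ± 2.51 against 66.3 ± 1.80 CPM, and Trp53, the gene of p53, at 68.8 ± 4.87 against 37.6 ± 1.61 CPM in the same groups. Over the 8 within-background tests of these 4 genes every Benjamini-Hochberg adjusted p was 0.971.

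The Atr effects differed between backgrounds for 2929 of 18189 genes (16.1%), of which 1465 (8.05%) had a higher and 1464 (8.05%) a lower effect in the Bax Bak background. The share of higher calls ran from 40.2% (with no filter on low counts, and without Atr-deleted Bax Bak replicate 2) to 57.9% (with the Bax Bak controls of series 100019 only) over the alternatives. At an unadjusted p under 0.05 the difference counted 5516 genes. Within the Bax Bak background 6202 genes (34.1%) were called, 3150 higher (17.3%) and 3052 lower (16.8%). Within the p53 background 70 genes (0.385%) were called, 46 higher (0.253%) and 24 lower (0.132%), with 1953 at an unadjusted p under 0.05. The median SE, from a spread estimated over all 4 groups together, was 0.114 in the Bax Bak and 0.129 in the p53 background. With each background fitted alone, 7756 and 8 genes were called. Of the 2929 genes with a called difference, 2673 had the larger absolute effect in the Bax Bak background and the rest in the p53 background. Across 14519 genes of at least 1 CPM the 2 effects, which share no library, correlated weakly (Pearson's r = 0.151, Spearman's rho = 0.0961), a description over genes that are not independent.

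**Figure D1:**
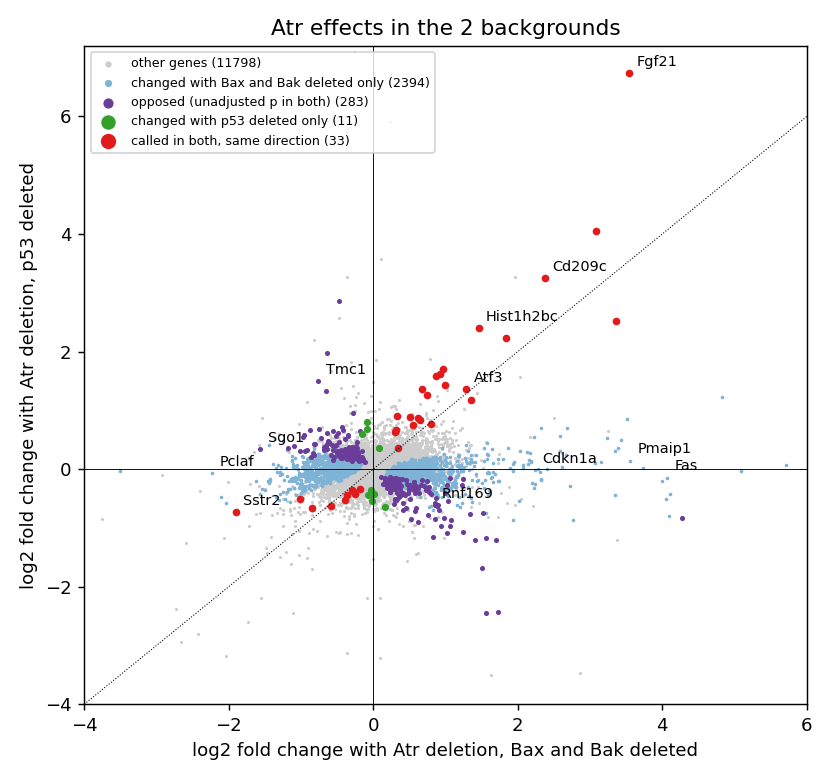
Log2 fold change on Atr deletion in the Bax Bak background (horizontal) against that in the p53 background (vertical) for 14500 genes of at least 1 mean CPM, with the sorted classes in colour. The 2394 genes drawn as called in the Bax Bak background only lie along the horizontal axis, and 33 genes called in both backgrounds lie in the upper right and lower left.

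Genes were then sorted by the 3 tests. The largest class, called in the Bax Bak background and not in the p53 background, with a called difference and the larger effect in Bax Bak (p53-dependent), held 2646 genes (14.5%). Its 1301 higher genes had a median effect of 0.56 in the Bax Bak and -0.07 in the p53 background, and its 1345 lower genes -0.45 and 0.05. For 2288 of them (12.6% of all genes) the 95% interval of the p53-background effect ended short of 50% of the Bax Bak effect. Another 39 genes were called in both backgrounds with 1 sign (p53-independent), of which 31 (0.17%) showed no called difference in size and 8 (0.044%) did. The mean of the 2 effects was called for 3833 genes (21.1%), 1877 higher (10.3%) and 1956 lower (10.8%). A wider definition, a called mean effect with a bounded difference, held 87 genes (0.478%). Effects with opposite signs numbered 8 (0.044%) with both called and 302 (1.66%) with both at an unadjusted p under 0.05. The 8 became 1 without p53 control replicate 3 and 53 without replicate 1. Another 18 genes (0.099%) were called in the p53 background only, and 3543 called genes (19.5%) met no definition, among them 3467 called in the Bax Bak background with neither the difference nor the p53-background effect called. The class sizes rest on the same libraries as the tests and are given as a description.

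**Figure D2:**
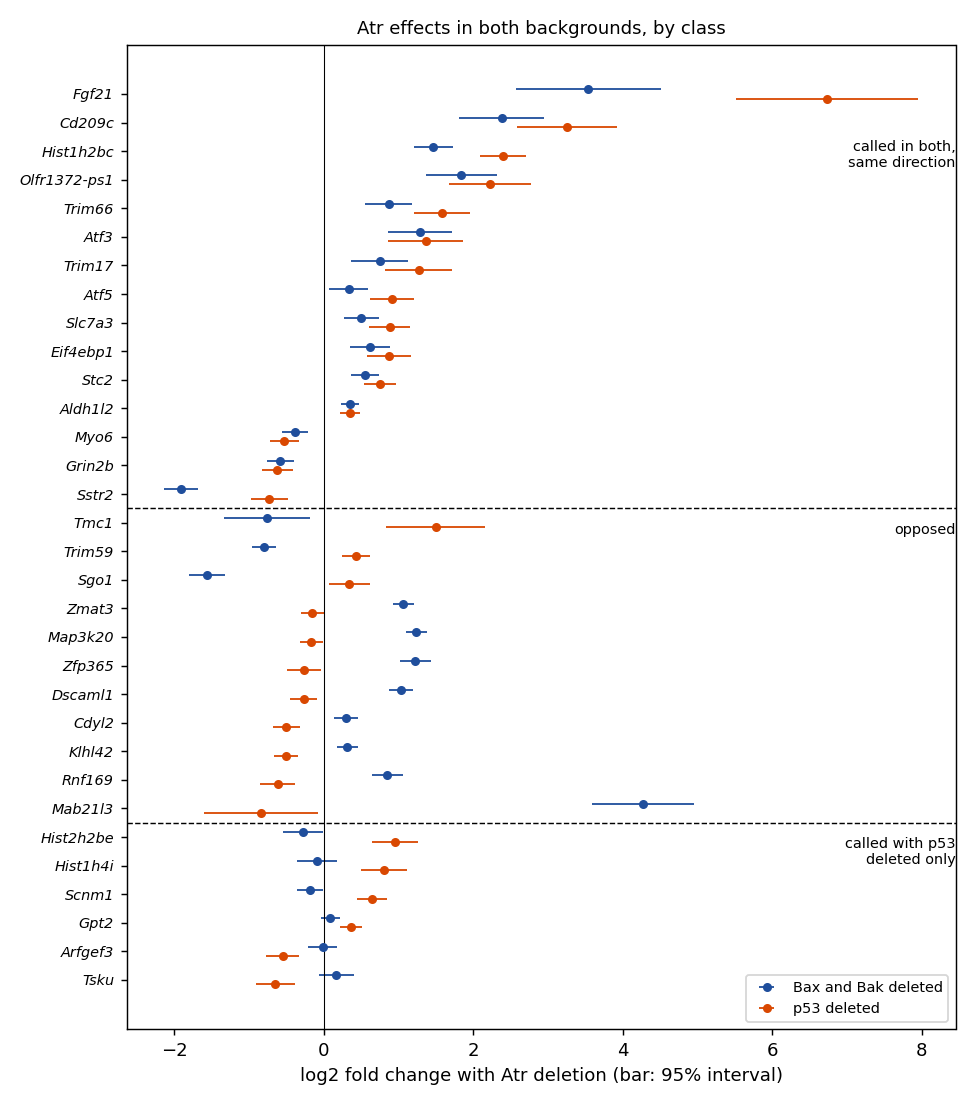
Log2 fold changes with 95% intervals on Atr deletion in the Bax Bak background (blue) and in the p53 background (orange) for named genes called in both, opposed, or called in the p53 background only. Genes called in both have both intervals on 1 side of 0, opposed genes such as Rnf169 (0.85 and -0.61) have them on opposite sides, and the last set departs from 0 mainly in orange.

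Known p53 targets fell largely into the first class. The 3 lists of p53 targets (death, arrest and feedback, repair and metabolism) held 57 measured genes. Of these, 41 rose and 3 fell in the Bax Bak background (against 17.3% and 16.8% of all genes), with a median of 0.62. In the p53 background 1 rose, none fell and 7 reached an unadjusted p under 0.05, with a median of -0.013; DESeq2 called 2 rises and limma-voom 1. The difference was called higher for 34 (against 8.05% of all genes) and lower for 1, and 35 fell into the Bax Bak only class. Their summed level was 1970 to 2062 CPM in the Bax Bak controls, 3283 to 3693 in the Atr-deleted libraries, 1887 to 1909 in the p53 controls and 1853 to 1925 in the Atr-deleted p53 libraries. The Atr-deleted Bax Bak libraries thus lay far above the other 3 groups. Marker sums of astrocytes, oligodendrocytes and interneurons were also highest in those libraries, as given with those lists further on. The p53 target lists and their sums include Bax, a deleted gene of the Bax Bak background. It stood at 34.0 CPM in the controls of that background and at 66.3 CPM in the p53 controls.

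Cdkn1a (chr17:29090976-29100727, GRCm38), the p21 inhibitor of cyclin-dependent kinases, stood at 56.8, 61.2, 47.7 and 52.8 CPM in the Bax Bak controls and at 216, 282, 275, 260.2 and 261 CPM after Atr deletion. In the p53 background its levels were 74.6, 80.6 and 71.5 CPM in controls and 75.6, 64.8, 80.8 and 78.2 CPM after Atr deletion. The Bax Bak groups did not overlap, as for 36.9% of all genes, and the p53 groups did, with no overlap in 8.03% of all genes. Its effect was 2.25 ± 0.093 in the Bax Bak background and -0.013 ± 0.099 in the p53 background (95% interval -0.22 to 0.20), a difference of 2.26 ± 0.13 (adjusted p = 1.18e-07). Eda2r, a p53-induced receptor of the tumour necrosis factor family, differed by 2.06 (adjusted p = 1.14e-06). Zfp365, whose human counterpart protects fragile sites, stood at 21.9, 23.7, 23.6 and 25.9 CPM in Bax Bak controls and 52.3, 58.4, 53.3, 54.5 and 58.97 CPM after Atr deletion. Its p53-background levels were 19.3, 24.6 and 21.3 CPM in controls and 15.8, 22.1, 18.4 and 16.1 CPM after deletion, overlapping, and the effects differed by 1.49 ± 0.15 (adjusted p = 1.19e-05). Mdm2, the ligase that degrades p53, differed by 0.62 and Ccng1, the p53-induced cyclin G1, by 1.15. Of the 17 measured arrest and feedback genes 12 rose and 1 (Ccng2) fell in the Bax Bak background (against 17.3% and 16.8% of all genes). The difference was called higher for 10 of them (against 8.05%). None of the 17 was called in the p53 background by edgeR, DESeq2 or limma-voom, and 2 reached an unadjusted p under 0.05.

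Death genes rose in the Bax Bak background, where Bax and Bak, through which several of them act, are deleted. Pmaip1, the gene of the BH3-only protein Noxa, stood at 4.02, 3.87, 4.38 and 4.42 CPM in the Bax Bak controls and 33.8, 52.8, 66.8, 50.5 and 41.8 CPM after Atr deletion. Its p53-background levels were 5.49, 4.87 and 5.495 CPM in controls and 6.298, 4.38, 6.93 and 5.78 CPM after deletion. The first 2 groups were far apart and the last 2 overlapped, and the difference of effects was 3.41 ± 0.25 (adjusted p = 1.14e-06). Fas (chr19:34290666-34327772), a death receptor at the cell surface, rose from 0.418, 0.315, 0.293 and 0.283 CPM to 5.25, 6.23, 5.55, 5.703 and 4.44 CPM. It stood at 0.4, 0.417 and 0.255 CPM in p53 controls and 0.179, 0.699, 0.287 and 0.141 CPM in the Atr-deleted p53 libraries, which spanned the controls. The Fas effects differed by 4.21 ± 0.53 (adjusted p = 1.00e-04). The death receptor gene Tnfrsf10b differed by 2.54 (adjusted p = 2.63e-05), and Zmat3, a p53-induced RNA-binding protein, by 1.22 (adjusted p = 1.53e-06). Bbc3, which encodes Puma, differed by 1.08. In all, 11 of 16 death genes rose in the Bax Bak background and 1, Casp8ap2, fell (against 17.3% and 16.8% of all genes). Their median was 0.95 against -0.034 in the p53 background. Neither edgeR, DESeq2 nor limma-voom called any of the 16 in the p53 background, with 2 at an unadjusted p under 0.05. Bax, itself deleted in the Bax Bak background, is among the 16.

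Most repair and metabolism genes had the same arrangement. Phlda3, which restrains Akt at the membrane, stood at 7.25, 7.45, 4.87 and 4.96 CPM in the Bax Bak controls and 28.5, 34.6, 34.1, 30.1 and 33.7 CPM after Atr deletion, and at 6.9, 6.26 and 6.74 and 6.54, 7.64, 6.44 and 6.02 CPM in the p53 control and Atr-deleted libraries. Only the Bax Bak groups were separate, and the difference was 2.396 (adjusted p = 1.53e-06). The phosphatase gene Ptp4a3 differed by 1.35 (adjusted p = 1.14e-06) and the adenylate kinase gene Ak1 by 1.26 (adjusted p = 2.09e-06). Of 24 genes 18 rose and 1 (Tigar) fell in the Bax Bak background (against 17.3% and 16.8% of all genes). The difference was called higher for 14 (against 8.05%). Gdf15, a secreted stress cytokine, was the single member called in the p53 background (4.54, 95% interval 3.27 to 5.81), described with the stress genes below.

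**Figure D3:**
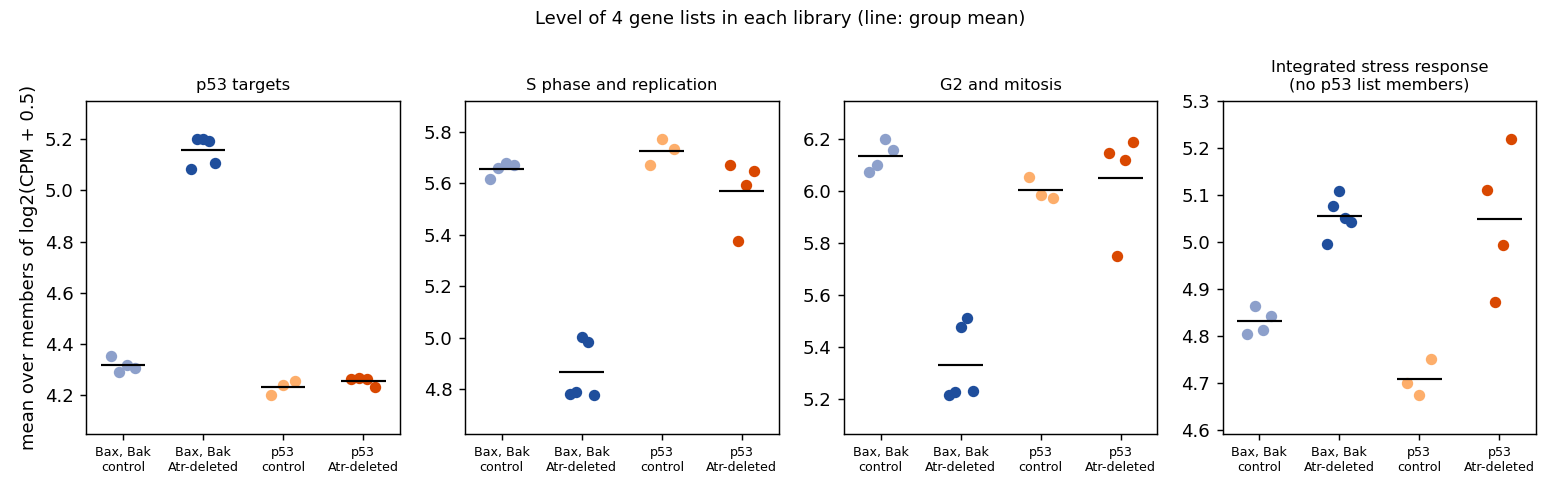
Mean over list members of log2(CPM + 0.5) in each of the 16 libraries (points, with the group mean as a line), by genotype group, for p53 targets, S phase, mitosis and integrated stress response genes. The p53 targets are high only in the Atr-deleted Bax Bak libraries (5.08 to 5.20 against 4.23 to 4.27 in Atr-deleted p53 libraries), and S phase and mitosis are lowest there. By this mean of logs the stress response (without the p53 list members) is above the controls in both Atr-deleted groups. Its summed CPM overlaps with the controls in both pairs.

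The promoters of 5 of 47 p53-list genes with a promoter sequence (10.6%) held the p53 consensus within 2 mismatches with its core bases intact, on either strand, against 0.392% of all 27025 promoters of the same 300-base length. Ccng1, Cdkn1a and Zfp365 are shown because they carry such a match upstream of the start and were called in the Bax Bak background only; Gtse1 and Trp73 were the other 2. Capitals mark the 20-base match. Sequences are those of RefSeq (GRCm38.p6), 5′ to 3′ on the strand of the gene, and a match is a description of the sequence only.
Ccng1, chr11:40755422-40755521, minus strand: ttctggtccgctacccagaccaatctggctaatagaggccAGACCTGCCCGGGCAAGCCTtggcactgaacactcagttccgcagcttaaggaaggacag
Cdkn1a, chr17:29090888-29090978, plus strand: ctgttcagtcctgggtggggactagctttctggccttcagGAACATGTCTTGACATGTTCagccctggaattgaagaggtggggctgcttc
Zfp365, chr10:67912666-67912765, minus strand: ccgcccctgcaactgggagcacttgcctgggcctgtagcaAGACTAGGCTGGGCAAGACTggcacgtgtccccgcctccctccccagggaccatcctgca

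The match lies 195 to 176 bases before the start of Ccng1, 51 to 32 before that of Cdkn1a and 63 to 44 before that of Zfp365. Among the higher genes of the Bax Bak only class 9 of 980 promoters (0.918%) held it, among the lower genes 3 of 1077 (0.279%), and among the 14 promoters of higher and 7 of lower genes called in both backgrounds none did.

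The largest positive differences named by rule, beside that of Fas, were those of 7 genes outside the p53 lists. Pla2g2f, a secreted phospholipase, differed by 5.13 ± 0.80 (adjusted p = 6.03e-04), Mab21l3 by 5.11 ± 0.47 and Zfp750 by 4.89 ± 0.59. The lipoxygenase gene Alox5 differed by 4.56 ± 0.47 and the chemokine gene Cxcl11 by 4.54 ± 0.66. Mean Alox5 levels were 0.849 and 14.2 CPM in the Bax Bak pair and 0.424 and 0.295 CPM in the p53 pair. Alox5 thus met the naming limit of 1 CPM only through the Atr-deleted Bax Bak group. Its p53-background effect of -0.51 was not called (adjusted p = 0.631). Lif, which encodes a cytokine of the interleukin 6 family, stood at 0.418, 0.338, 0.112 and 0.182 CPM in Bax Bak controls and 3.45, 4.03, 4.04, 4.19 and 4.34 CPM after Atr deletion. Its levels were 0.271, 0.518 and 0.644 CPM in p53 controls and 0.357, 0.435, 0.495 and 0.381 CPM in Atr-deleted p53 libraries, all below every Atr-deleted Bax Bak library, and the difference was 4.199 ± 0.46 (adjusted p = 3.18e-05). For Tmem125 the effects were 1.73 in the Bax Bak and -2.42 in the p53 background (adjusted p = 0.111). The largest negative differences among genes whose Bax Bak groups did not overlap belonged to Fgf21 and Pclaf, described with their groups, and to Sgo1, the protector of sister centromeres (-1.91), Rep15 (-1.85), Igf2bp1 (-1.74), Vipr1 (-1.63), Mns1 (-1.55) and the cyclin-kinase partner Cks2 (-1.52).

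Replication genes fell in the Bax Bak background. All 50 S phase genes were called lower there (against 16.8% of all genes), with a median of -0.80 against -0.13 in the p53 background. A lower difference was called for 34 (against 8.05%). Of the same 50 in the p53 background, edgeR and limma-voom called 0 and DESeq2 called 2 lower; 12 reached an unadjusted p under 0.05 and 8 had a positive estimate. The summed level of the list was 3203 to 3389 CPM in the Bax Bak controls and 1762 to 2104 CPM in their Atr-deleted partners. It was 3338 to 3591 CPM in the p53 controls and 2648 to 3388 CPM in the Atr-deleted p53 libraries, so the second group was lowest by far. Replicate 2 of the last group, the library rich in mitochondrial RNA, held the 2648 CPM. The rest of that group held 3200 to 3388 CPM. Pclaf (chr9:65890237-65903266), the PCNA-associated factor, stood at 141, 150.1, 147 and 123 CPM in the Bax Bak controls and 27.4, 29.03, 33.9, 32.6 and 26.7 CPM after Atr deletion. In p53 controls it stood at 121, 107 and 109 CPM and in the Atr-deleted libraries at 108, 121, 124 and 76.3 CPM. The Bax Bak groups lay far apart and the p53 groups overlapped, with effects of -2.23 ± 0.12 and -0.065 ± 0.13, a difference of -2.16 ± 0.18 (adjusted p = 3.26e-06). Tyms, the thymidylate synthase, had no overlap in either background: 46.8, 51.3, 52.2 and 52.1 against 25.1, 23.5, 26.04, 26.2 and 21.7 CPM in Bax Bak, and 56.5, 57.5 and 54.6 against 50.1, 51.1, 49.4 and 50.1 CPM in p53 controls and Atr-deleted libraries. Its p53-background effect of -0.16 was not called (adjusted p = 0.389), and the difference was -0.88 ± 0.092 (adjusted p = 1.81e-05). The primase subunit gene Prim1 differed by -1.12 (adjusted p = 3.28e-05).

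Mitotic genes fell in the Bax Bak background too, and had a median near 0 in the p53 background. Of 46 genes 44 were called lower and 1 higher in the Bax Bak background (against 16.8% and 17.3% of all genes), and the median was -0.83. A lower difference was called for 43 (against 8.05%). The p53-background median was 0.063, 28 of 46 estimates were positive, edgeR and limma-voom called none and DESeq2 called 1 higher, and 4 reached an unadjusted p under 0.05. Bub1 (chr2:127801122-127831865), a spindle checkpoint kinase, stood at 54.97, 57.4, 57.6 and 57.1 CPM in the Bax Bak controls and 23.8, 22.7, 30.9, 28.6 and 23.97 CPM after Atr deletion. Its p53-background levels were 52.1, 47.1 and 51.03 CPM in controls and 54.95, 51.3, 58.9 and 56.6 CPM after deletion. Atr-deleted Bax Bak libraries were all low and the p53 groups overlapped, and the effects of -1.13 ± 0.081 and 0.15 ± 0.093 differed by -1.27 ± 0.12 (adjusted p = 1.14e-05). The kinetochore gene Ndc80 differed by -1.28 (adjusted p = 6.83e-05). Hmmr, a spindle-associated protein, stood at 45.5, 47.4, 53.6 and 52 against 28.9, 29.8, 35.1, 35.9 and 29.3 CPM in Bax Bak controls and Atr-deleted libraries and at 40.9, 37.4 and 37.7 against 50.4, 45.4, 53.5 and 57.8 CPM in the p53 pair. Neither pair overlapped, the signs were opposite (-0.64 and 0.42), and the p53-background effect was not called (adjusted p = 0.0813). Without replicate 2 of the Atr-deleted p53 group, whose summed mitotic level of 2926 CPM was the lowest of its group, the p53-background median of the list was 0.16.

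The checkpoint pathway itself followed the same division. Of 45 Atr-Chk1 and repair genes, 35 fell in the Bax Bak background (against 16.8% of all genes), and 19 had a called lower difference (against 8.05%). With p53 deleted edgeR, DESeq2 and limma-voom called none, with 11 at an unadjusted p under 0.05 and a median of -0.087. Replicate 2 of the Atr-deleted p53 group had a summed level of 1478 CPM, against 1748 to 1872 CPM in the rest of that group. Chek1 (chr9:36708482-36727065), the gene of the Chk1 kinase that Atr activates, stood at 25.2, 25.97, 24.7 and 22.8 CPM in Bax Bak controls and 12.7, 10.9, 14.1, 14.9 and 11.5 CPM after Atr deletion. Its levels were 20.1, 19.7 and 18.4 CPM in p53 controls and 23.5, 22.4, 25.8 and 24.1 CPM in Atr-deleted p53 libraries. Both pairs were separate but in opposite directions, with effects of -0.94 ± 0.086 and 0.30 ± 0.098 (adjusted p = 0.234 for the latter) and a difference of -1.25 ± 0.13 (adjusted p = 2.13e-05). The recombination genes Rad54b and Rad51ap1 differed by -1.11 and -0.80.

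**Figure D4:**
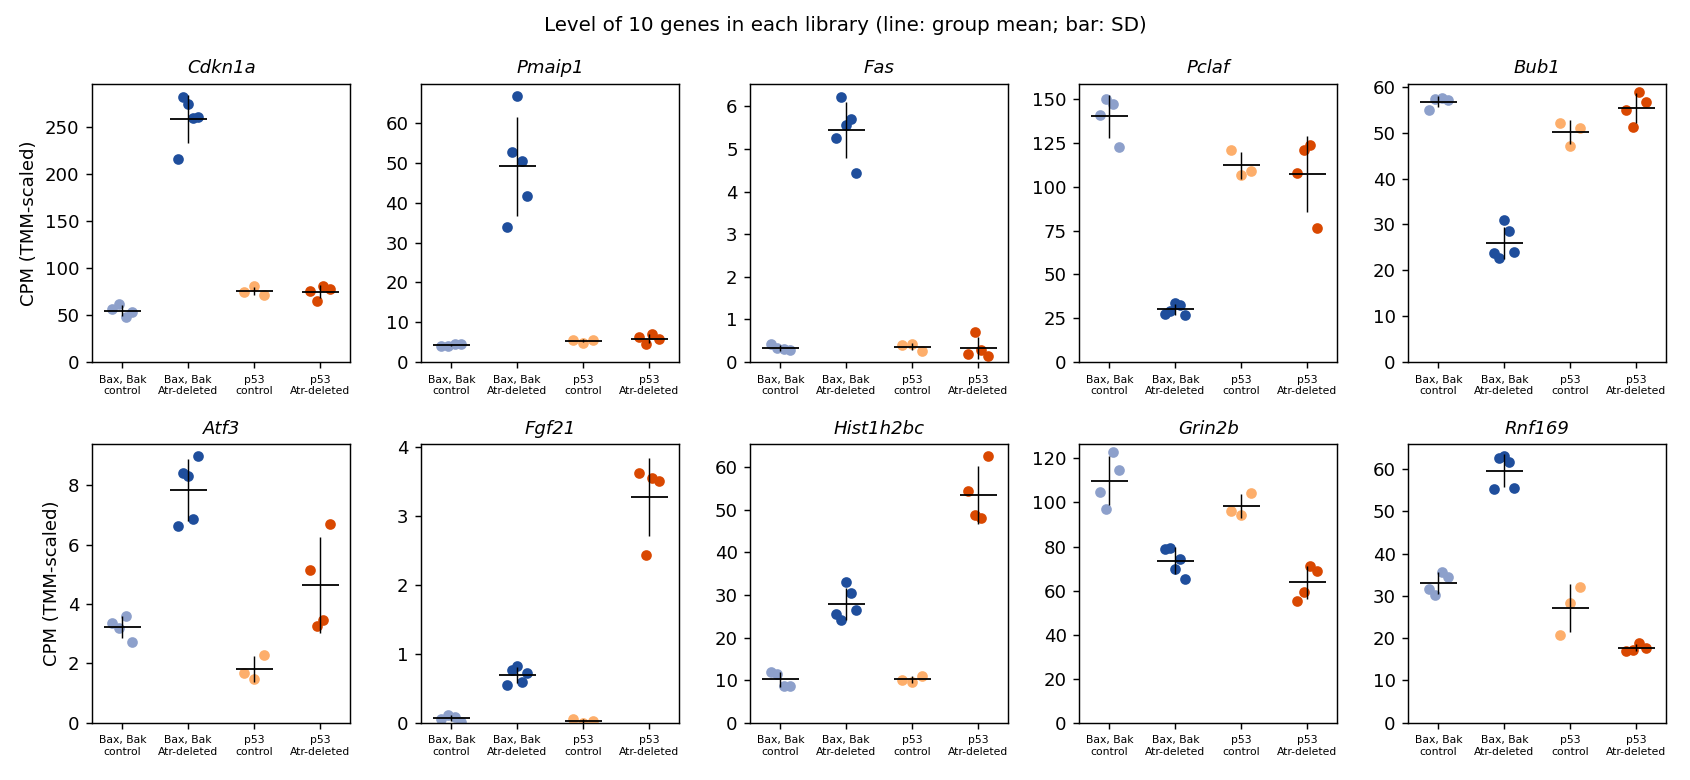
CPM of 10 genes in each library by genotype group, with the group mean as a line and the SD as a bar, each panel on its own axis. Cdkn1a, Pmaip1 and Fas are high only in the Atr-deleted Bax Bak libraries and Pclaf and Bub1 low only there, whereas Atf3, Fgf21 and Hist1h2bc are high and Grin2b low in both Atr-deleted groups, and Rnf169 moves in opposite directions.

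Sonic hedgehog and progenitor genes fell in part. In the Bax Bak background 13 of 26 fell and 2 rose (against 16.8% and 17.3% of all genes). In the p53 background edgeR and limma-voom called none, DESeq2 called 1 lower and 9 reached an unadjusted p under 0.05. Differences were called for 4 lower and 2 higher, beside 16.1% of all genes with a called difference. The lower count was 2 without Bax Bak control 3 or p53 control 2 and 9 without Atr-deleted p53 replicate 2. The called genes included Pax6, a transcription factor of the granule lineage (-0.63), Gas1, a hedgehog co-receptor (-0.54), and Hhip, a hedgehog-binding target gene (0.70). The Bcl-2 family and caspase list (23 genes) had 1 called higher difference, Bcl2l11, the gene of the BH3-only protein Bim (0.93), and 4 lower (against 8.05% of all genes in each direction).

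Genes of the integrated stress response made up 6 of the 39 genes called in both backgrounds. This response slows translation through eIF2α while the transcription factor ATF4 raises genes of amino acid supply and stress signalling. Of 27 genes on the list, 13 rose and 2 fell in the Bax Bak background (against 17.3% and 16.8% of all genes). In the p53 background 6 rose (against 0.253% of all genes), 14 reached an unadjusted p under 0.05 and 23 had a positive estimate. The medians were 0.22 and 0.21, and the difference was called higher for 2 and lower for 4 (against 8.05% of all genes in each direction). After removal of the 3 genes that the p53 lists share, 10 of 24 rose in the Bax Bak background and 5 in the p53 background, with medians of 0.22 and 0.20. The summed level of these 24 overlapped in both pairs. It was 1874 to 1973 CPM in Bax Bak controls and 1908 to 2090 CPM in their Atr-deleted partners. In the p53 pair it was 1865 to 2017 CPM in controls and 1724 to 2208 CPM after Atr deletion. The p53-background calls of the 39 genes called in both rested on the joint fit: when the p53 libraries were fitted alone 8 genes were called in place of 70, and Aldh1l2, Atf3, Atf5, Eif4ebp1, Grin2b, Myo6, Slc7a3, Sstr2, Stc2, Trim17 and Trim66 kept their sign without being called, while Cd209c, Fgf21, Hist1h2bc and Olfr1372-ps1 were called again.

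Atf3 (chr1:191170296-191218039), a transcription factor induced downstream of ATF4, stood at 3.37, 3.19, 3.58 and 2.72 CPM in the Bax Bak controls and 6.63, 8.42, 8.31, 6.86 and 8.997 CPM after Atr deletion. In the p53 background it stood at 1.66, 1.47 and 2.29 CPM in controls and 5.13, 3.26, 3.45 and 6.697 CPM after deletion. Neither pair overlapped, and the effects of 1.29 ± 0.20 and 1.36 ± 0.24 (adjusted p = 0.017 for the latter) differed by -0.074 ± 0.30 (adjusted p = 0.908). Fgf21 (chr7:45613886-45615490), a secreted hormone of starvation and stress, had 2, 5, 6 and 1 counts in the Bax Bak controls and 43, 63, 48, 42 and 43 after Atr deletion. It had 4, 0 and 2 counts in the p53 controls and 264, 157, 223 and 249 in the Atr-deleted p53 libraries, so that every Atr-deleted library was above every control and those of the p53 background were the highest. Its effects were 3.54 ± 0.46 and 6.73 ± 0.57 (adjusted p = 1.18e-05), resting on few control counts, and the difference of -3.19 ± 0.79 (adjusted p = 0.0123) was of the opposite sign to the p53 targets. Gdf15 had 54 counts in all Bax Bak controls together and 687 in their Atr-deleted partners, and 8 and 257 in the p53 pair, with effects of 3.21 and 4.54 and no called difference (adjusted p = 0.242).

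Other members of the response had smaller effects. Stc2, a secreted glycoprotein, stood at 5.04, 5.42, 5.81 and 5.45 against 8.08, 7.31, 8.19, 8.18 and 8.18 CPM in the Bax Bak pair and 4.36, 3.94 and 3.74 against 6.99, 6.34, 6.92 and 6.82 CPM in the p53 pair, with no overlap in either and effects of 0.56 and 0.75 (adjusted p = 0.00233). Ddit3, the gene of CHOP, rose by 0.32 (adjusted p = 0.0471) and 0.66 (adjusted p = 0.0458). For Atf5, an ATF4 target, the rise was 0.33 and 0.91, with a called difference of -0.58 (adjusted p = 0.0424), called in 5 of the 16 fits that each left out 1 library. Trib3 and Chac1 rose in the Bax Bak background (0.73 and 0.66) with p53-background values of 1.301 (adjusted p = 0.0607) and 0.62 (adjusted p = 0.0708). Atf4 itself was not called, at -0.11 and 0.040. Slc7a3, a carrier of cationic amino acids, Eif4ebp1, a brake on cap-dependent translation, and Aldh1l2, a mitochondrial folate enzyme, are not on the list. They were also called in both, by 0.50 and 0.88, 0.62 and 0.87, and 0.35 and 0.36.

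Members of the response also differed between backgrounds. Sesn2, an inhibitor of mTORC1 and a target of both p53 and ATF4, stood at 23.4, 23.7, 27.6 and 26.3 against 68.9, 74.5, 80.4, 73.7 and 77.7 CPM in the Bax Bak pair and 16.2, 12.9 and 14.7 against 22.1, 15.1, 20.7 and 21.8 CPM in the p53 pair. Only the Bax Bak pair was separate, and effects of 1.57 and 0.45 (adjusted p = 0.121) differed by 1.12 ± 0.15 (adjusted p = 1.98e-04). The serine synthesis gene Psat1 had the reverse arrangement, 170.2, 177, 171 and 176 against 143, 150.4, 150.1, 150.2 and 148 CPM and 199.8, 186 and 187 against 219, 210.2, 209 and 224 CPM, lower after Atr deletion in the first pair and, at an uncalled 0.17 (adjusted p = 0.168), higher in the second. Its difference was -0.40 (adjusted p = 8.93e-04), and that of the mitochondrial folate enzyme gene Mthfd2 was -0.63 (adjusted p = 0.00296).

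The ATF4 core motif, searched as TGATGNAA on both strands, was found in the promoters of 10 of 25 integrated stress response genes (40%) against 4.51% of all 27025 promoters and 3.00% of those of tested genes. Among the higher genes called in both backgrounds 2 of 14 promoters held it (Atf3 and Fgf21), and among the higher genes of the Bax Bak only class 2.96% did. Atf3, Fgf21, Chac1 and Asns are shown for their match upstream of the start, in capitals, from RefSeq (GRCm38.p6) on the strand of the gene.
Atf3, chr1:191183396-191183483, minus strand: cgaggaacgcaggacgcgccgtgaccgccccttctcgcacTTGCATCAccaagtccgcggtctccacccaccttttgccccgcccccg
Fgf21, chr7:45615582-45615669, minus strand: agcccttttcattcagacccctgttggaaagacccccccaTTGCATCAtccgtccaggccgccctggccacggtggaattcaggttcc
Chac1, chr2:119351009-119351096, plus strand: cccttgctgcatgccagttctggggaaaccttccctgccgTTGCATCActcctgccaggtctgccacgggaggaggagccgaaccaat
Asns, chr6:7693210-7693272, minus strand: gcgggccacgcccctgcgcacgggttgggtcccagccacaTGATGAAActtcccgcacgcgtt

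The match lies 110 to 103 bases before the start of Atf3, 139 to 132 before Fgf21, 193 to 186 before Chac1 and 23 to 16 before Asns. Asns, asparagine synthetase, was not called in either background (0.073, adjusted p = 0.428, and 0.21, adjusted p = 0.311).

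Histone genes made up 6 of the 39 genes called in both backgrounds, 5 of them among the 26 counted next. Replication-dependent histone messages normally lack a poly(A) tail, and these libraries were poly(A)-selected, so the values count only the polyadenylated part. Of the 26 clustered histone genes that share at most 50% of their 31-base words with another gene, 12 rose and 1 fell in the Bax Bak background (against 17.3% and 16.8% of all genes) and 7 rose in the p53 background (against 0.253%), where all 26 estimates were positive and the median was 0.91. Most of the 26 had a mean below 1 CPM, so the positive estimates and the median rest mainly on genes of low counts. The summed level of the 26 was 124 to 138 CPM in the Bax Bak controls and 143 to 171 in their Atr-deleted partners. It was 148 to 167 CPM in the p53 controls and 257 to 284 in the Atr-deleted p53 libraries. The last group was the highest, above all 12 other libraries. Hist1h2bc (chr13:23684199-23692908), an H2B gene, stood at 11.9, 11.5, 8.66 and 8.66 CPM in the Bax Bak controls and 25.5, 24.2, 33.1, 30.5 and 26.4 CPM after Atr deletion. In the p53 pair it stood at 9.93, 9.57 and 10.96 and 54.4, 48.7, 48.2 and 62.7 CPM. Neither pair overlapped, and the rises of 1.46 ± 0.12 and 2.398 ± 0.15 (adjusted p = 1.89e-07) differed by -0.94 ± 0.18 (adjusted p = 0.00283). Hist1h1c, a linker histone gene, rose by 0.92 and 1.61, and Hist2h3c1 by 0.80 and 0.77. For the linker histone gene Hist1h1b the larger rise was in the Bax Bak background (3.56 against 1.78), from a control mean of 0.0471 CPM, a few counts a library, so the size of that fold is poorly fixed.

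Other genes called in both backgrounds had no common list. Grin2b (chr6:135713233-136173511), a subunit of the NMDA receptor that young granule neurons express, stood at 105, 97.2, 123 and 115 CPM in the Bax Bak controls and 79.02, 79.3, 69.9, 74.3 and 65.3 CPM after Atr deletion. The p53 pair stood at 95.9, 94.2 and 104 and 55.4, 59.5, 71.3 and 68.7 CPM. Every Atr-deleted library was below every control of its background, the effects were -0.58 ± 0.086 and -0.62 ± 0.097 (adjusted p = 0.00719), and the difference was 0.044 ± 0.13 (adjusted p = 0.869, 95% interval -0.23 to 0.32). Sstr2 (chr11:113619342-113626028), a somatostatin receptor, stood at 54.7, 59.9, 65.2 and 76.8 against 16.3, 17.4, 19.9, 15.7 and 16.3 CPM in the Bax Bak pair and 62.97, 73.4 and 77.5 against 44.9, 39.4, 49.9 and 38.1 CPM in the p53 pair. Both falls were free of overlap and unequal, -1.91 and -0.73 (adjusted p = 0.0115), with a difference of -1.18 ± 0.16 (adjusted p = 1.98e-04). Myo6, an actin motor, fell by 0.39 and 0.53 on the log2 scale. Cd209c, a lectin gene, rose from 2.07, 1.305, 2.203 and 1.53 to 7.87, 8.98, 9.304, 8.98 and 11.1 CPM and, in the p53 pair, from 1.13, 1.76 and 1.198 to 13.98, 11.1, 6.75 and 20.1 CPM. Neither Cd209c pair overlapped, and the effects of 2.38 and 3.25 showed no called difference (adjusted p = 0.134). Trim66 and Trim17 rose by 0.87 and 0.75 in the Bax Bak and by 1.58 and 1.27 in the p53 background, and the pseudogene Olfr1372-ps1 by 1.84 and 2.23. In the wider class the largest mean rises beside these included Lat2 (0.81 ± 0.15), Cfap58 (0.79 ± 0.15) and Col2a1, a cartilage collagen (0.79 ± 0.16). The largest mean falls beside Grin2b included Kcnj6, a potassium channel (-1.005 ± 0.12), Bmp5, a secreted growth factor (-0.89 ± 0.14), St18 (-0.89 ± 0.12), Fzd7, a Wnt receptor (-0.75 ± 0.093), and Pdlim1 (-0.67 ± 0.12).

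Among the 8 genes called in both backgrounds with opposite signs, Rps2-ps6, Rps3a1 and Yy2 share over 50% of their 31-base words with another gene and are uncertain. Rnf169 (chr7:99920254-99980448), a ubiquitin-binding protein recruited to double-strand breaks, stood at 31.6, 30.3, 35.8 and 34.6 CPM in the Bax Bak controls and 55.2, 62.6, 63.05, 61.8 and 55.6 CPM after Atr deletion. In the p53 pair it stood at 20.9, 28.3 and 32.1 and 17.04, 17.2, 18.9 and 17.7 CPM. It rose in the first pair and fell in the second without overlap, with effects of 0.85 ± 0.099 and -0.61 ± 0.11 (adjusted p = 0.0214), a difference of 1.47 ± 0.15 (adjusted p = 1.51e-05). The single p53 control of series 1843, at 20.9 CPM, was the closest of the 3 to the Atr-deleted libraries. Trim59 (chr3:69035288-69044755), a ubiquitin ligase, stood at 79.9, 82.4, 89.7 and 89.3 against 43.9, 45.2, 54.4, 54.6 and 46.6 CPM in the Bax Bak pair and 58.2, 58.5 and 51.4 against 71.9, 77.7, 82.7 and 69.99 CPM in the p53 pair. It fell in the first and rose in the second, with effects of -0.80 ± 0.077 and 0.43 ± 0.089 (adjusted p = 0.0441), a difference of -1.23 ± 0.12 (adjusted p = 9.61e-06). Klhl42, an adaptor of a ubiquitin ligase, stood at 23.8, 23.04, 26.8 and 26.9 against 30.7, 31.1, 29.6, 31.8 and 33.3 CPM and, in the p53 pair, at 25.4, 21.5 and 24.7 against 17.2, 15.8, 17.1 and 16.99 CPM, a difference of 0.83. Cdyl2, a chromodomain protein, had effects of 0.30 and -0.50, and Tmc1, a channel of hair cells, -0.76 and 1.495.

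The wider set of 302 opposed genes had medians of 0.40 and -0.32 for the 164 higher in the Bax Bak background and -0.37 and 0.30 for the 138 lower, with 183 of the 302 also in the Bax Bak only class. It held Sgo1 (-1.56 and 0.34), Zfp365 (1.22 and -0.26), Zmat3 (1.06 and -0.16), Map3k20, a kinase that senses stalled ribosomes (1.24 and -0.17), Dscaml1, a neuronal adhesion molecule (1.03 and -0.27), and Mab21l3 (4.27 and -0.84). When the only p53 control was that of series 1843, far fewer genes met the definition. The sign of the p53-background effect was then kept by 141 of the 164 and by 128 of the 138. These genes were chosen by p-values from a fit that holds this control, so the kept signs are no separate support.

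The 18 genes called in the p53 background only included 3 histone genes. Hist2h2be, an H2B gene, stood at 11.7, 9.27 and 8.89 CPM in the p53 controls and 22.2, 20.2, 14.3 and 20.7 CPM after Atr deletion, against 16.8, 16.2, 16.9 and 18.03 CPM in the Bax Bak controls and 13.7, 14.5, 14.6, 16.1 and 11.1 CPM in their partners. The p53 groups did not overlap, and the effects of -0.28 and 0.96 (adjusted p = 0.00719) differed by -1.24 (adjusted p = 5.94e-04). Hist1h4i rose by 0.81 (adjusted p = 0.0214). Scnm1, a splicing factor, stood at 15.6, 14.8 and 16.1 CPM in the p53 controls and 25.5, 25.9, 18.9 and 26.2 CPM after deletion, a rise of 0.64 (adjusted p = 0.00532) with the groups apart. Gpt2, a mitochondrial alanine transaminase, rose by 0.36. Tsku, a secreted leucine-rich protein, and Arfgef3 had effects of -0.65 and -0.55. None of these 6 genes was called when the p53 libraries were fitted alone, and without p53 control replicate 2 the class fell from 18 genes to 2, while without replicate 1 it grew to 104. The difference for Gpt2 (-0.28) kept its call in 3 of 16 fits that each left out 1 library.

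Markers of some, but not all, cell types outside the granule lineage moved with the p53-target pattern. In the Bax Bak background 16 of 20 astrocyte and Bergmann glia genes rose, as did 12 of 15 of the oligodendrocyte lineage, 14 of 20 of microglia, 12 of 19 of Purkinje cells and 12 of 14 of GABAergic interneurons (against 17.3% of all genes). A single gene of each of the astrocyte, oligodendrocyte and interneuron lists fell there (against 16.8% of all genes), and no microglial or Purkinje gene did. Differences were called higher for 13, 10, 7, 8 and 9 genes of these lists, in the same order (against 8.05% of all genes). They included the transcription factor Olig2 at 0.80, the glial adhesion gene Hepacam at 0.86, the microglial Laptm5 at 0.86 and the vesicular GABA transporter gene Slc32a1 at 0.74. In the p53 background Pdgfra of the oligodendrocyte list fell, Fcrls of the microglial list rose and no other of these genes was called by edgeR. Both were called with the same sign in the Bax Bak background. Pdgfra was thus the 1 oligodendrocyte gene that fell there, against the 12 that rose. Summed astrocyte markers were 5580 to 6033 CPM in Bax Bak controls, 7346 to 8907 in Atr-deleted Bax Bak, 5665 to 6181 in p53 control and 5601 to 6217 in Atr-deleted p53 libraries. Interneuron markers ranged over 773 to 841, 1035 to 1207, 744 to 806 and 722 to 768 CPM, and oligodendrocyte markers over 1362 to 1880, 2032 to 3768, 800.3 to 1193 and 702 to 815 CPM in the same order. The marker sums were thus highest in the Atr-deleted Bax Bak libraries for these 3 lists. Purkinje markers ranged over 3520 to 4051, 4306 to 5903, 3547 to 3853 and 3716 to 4241 CPM, again highest in the second group. Microglial markers, at 185 to 235, 259 to 315, 275 to 315 and 295 to 317 CPM, were lowest in the Bax Bak controls and overlapped among the other 3 groups. Choroid plexus markers ranged from 173.2 to 3986 CPM within the Bax Bak controls alone, and meningeal markers had no called difference (0 of 14, also by DESeq2 and limma-voom, with 0 at an unadjusted p under 0.05). In the Bax Bak background 2 of 20 endothelial and pericyte genes rose, with 1 of 9 of brainstem and midbrain and 1 of 7 erythroid genes. Of 14 meningeal and 12 choroid plexus genes 0 rose there. Among the endothelial, meningeal, choroid plexus, brainstem and erythroid lists the only fall was that of 1 meningeal gene. What part cell composition had in the differences was not tested.

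**Figure D5:**
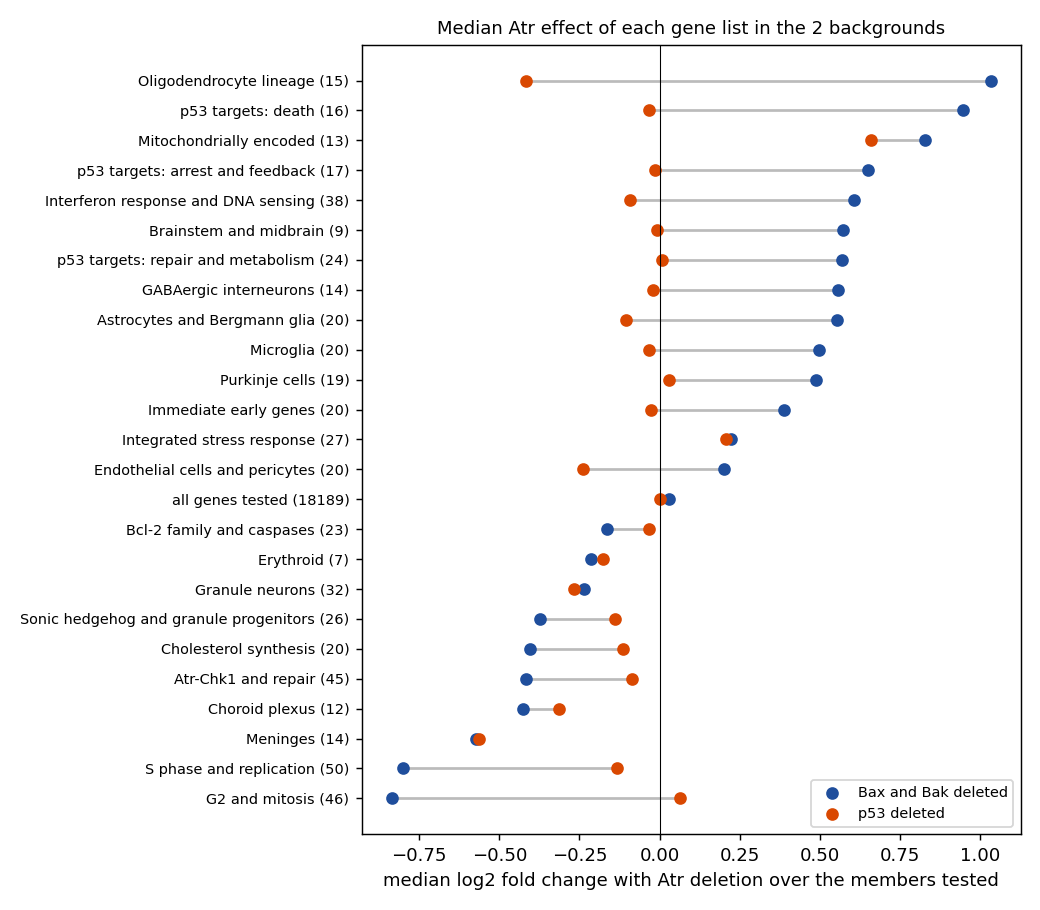
Median log2 fold change on Atr deletion over the tested members of each list drawn (number in brackets) in the Bax Bak background (blue) and in the p53 background (orange). The two-cell embryo genes, the histone genes and combined lists are not drawn. The p53 target lists are far right of 0 in blue and near 0 in orange, as are the interferon list and several cell marker lists. The oligodendrocyte list is at 1.03 in blue and -0.42 in orange. S phase and mitosis are far left in blue only, and the integrated stress response has its 2 points together at 0.22 and 0.21.

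Interferon-stimulated and DNA-sensing genes rose in the Bax Bak background, 20 of 38 higher and 1 (Ifit2) lower (against 17.3% and 16.8% of all genes). Their median was 0.61 against -0.091 in the p53 background. The difference was called higher for 13 and lower for 1 (against 8.05% of all genes in each direction). Tap1, a peptide transporter of antigen presentation, stood at 6.22, 5.29, 5.14 and 4.48 CPM in Bax Bak controls and 17.4, 16.9, 19.3, 17.3 and 16.99 CPM after Atr deletion, and at 4.27, 5.44 and 5.18 and 4.25, 4.77, 2.65 and 5.499 CPM in the p53 pair. Only its Bax Bak groups were apart, with a difference of 1.95 (adjusted p = 9.76e-05). Mx1, an antiviral GTPase, was the list's only member called in the p53 background (0.97 and 1.696) and one of the 39 genes called in both. Among 20 immediate early genes 6 rose in the Bax Bak background (against 17.3% of all genes) and 3 had a called higher difference (against 8.05%), Fosl2 at 1.19, while edgeR, DESeq2 and limma-voom called none in the p53 background and 1 reached an unadjusted p under 0.05.

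These counts depended on the p53 control group, which had the fewest libraries. With only the control of series 1843, which shares its series with the Atr-deleted libraries, 454 differences were called, 419 of them among the 2929. The list medians of the difference were then 0.61 for the p53 targets (0.65 with all controls), -0.70 for S phase and -0.83 for mitosis, and the difference kept its sign for 1300 of the 1301 higher and all 1345 lower genes of the Bax Bak only class. Called lower differences then numbered 16 in place of 34 for S phase, 18 in place of 43 for mitosis, 5 in place of 19 for Atr-Chk1 and repair and 0 in place of 4 for the stress response, and 9, 9 and 10 genes of the 3 p53 target lists had a called higher one. For the 39 genes called in both backgrounds the p53-background effect kept its sign in all 39. These genes and those of the Bax Bak only class were chosen by calls in a fit that holds the series 1843 control. Their kept signs were thus largely fixed by the choice and are no separate support. Differences no longer called with that control included Fgf21 (-2.26, adjusted p = 0.187) and Hist1h2bc (-0.97, adjusted p = 0.0578). Calls in the p53 background numbered 267 without control replicate 1, 18 without replicate 2 and 25 without replicate 3, and called differences 3424, 1826 and 1628. Without replicate 2 of the Atr-deleted p53 group, the library rich in mitochondrial RNA, 3562 differences were called.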

How the data were processed

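RNA from the cerebella was prepared as poly(A)-selected, stranded libraries, each sequenced in 2 lanes, per the labels' protocols. The authors deposited estimated counts per transcript and lane; the submitters' processing notes name kallisto 0.42.4, edgeR, mm9 and GRCm38 without their roles. Lanes were added, and 92372 of 94080 transcript identifiers were matched to GENCODE M21 and summed to 31517 genes; the rest held 0.746% to 1.008% of counts. Rounded sums entered 1 edgeR 4.0.16 quasi-likelihood fit (robust, TMM scaling, filterByExpr, R 4.3.3) of 4 groups and 16 libraries, with Benjamini-Hochberg adjustment over 18189 genes and a threshold of 0.05. With 42634661 to 99812469 counts a library, 1 count is 0.0100 to 0.0235 CPM; CPM uses the TMM-scaled total. The library left out had identical values in both lane columns. Of the genes tested, 1480 share over 50% of their 31-base words with another gene. In simulated data the interaction test recovered 47 of 100 genes changed 1.5-fold and 99 of 100 changed 3-fold, with 7 false calls among 17937 genes. The changed genes were drawn only from genes of high mean count and were changed in the Atr-deleted Bax Bak group alone. All other genes had equal means in the groups, and no series effect was simulated. Recovery of genes of few counts and false calls due to series were thus not measured. DESeq2 1.42.0 and limma 3.58.1 (voom) were alternatives, beside other scalings, filters, thresholds, control subsets and leaving out each library. The libraries, the gene lists and the sorting rules were chosen with earlier results of these data known.

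Named genes had a mean of at least 1 CPM and at most 50% shared words. They were the 8 largest interactions in each direction without overlap in the Bax Bak background, up to 15 genes called in both backgrounds by p in the p53 background, the 6 largest mean changes in each direction of the wide class, all strictly and 8 widely opposed genes, 6 genes of the p53 background only, up to 3 members of each main list and 1 of each other list by interaction p, and the deleted genes. Atoh1, Atf4, Asns, Bbc3, Ccng1, Ccng2, Casp8ap2, Chac1, Ddit3, Fcrls, Gdf15, Gtse1, Hist1h1b, Hist1h1c, Hist2h3c1, Ifit2, Mdm2, Mx1, Pdgfra, Rps2-ps6, Rps3a1, Tigar, Trib3, Trp73, Yy2 and Zic1 were named outside this rule after their values were seen. Of the genes the rule chose, 2 are not reported here.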

Additional observations from a re-analysis of the deposited data

Results flagged for a closer look

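The Atr effects differed between the backgrounds, by a test of the difference itself, for 2929 genes over all genes tested and for 67 of the 94 genes named by rule. Several naming rules required or preferred a called difference, so the share among named genes follows largely from their choice. The values are the log2 effect in the Bax Bak background minus that in the p53 background. Among the p53 targets the differences were Cdkn1a 2.26, Eda2r 2.06, Zfp365 1.49, Pmaip1 3.41, Fas 4.21, Tnfrsf10b 2.54, Zmat3 1.22, Phlda3 2.40, Ptp4a3 1.35 and Ak1 1.26. Among S phase, mitosis and repair genes they were Pclaf -2.16, Prim1 -1.12, Tyms -0.88, Bub1 -1.27, Ndc80 -1.28, Hmmr -1.06, Cks2 -1.52, Sgo1 -1.91, Chek1 -1.25, Rad54b -1.11 and Rad51ap1 -0.80. The other large positive differences were Pla2g2f 5.13, Mab21l3 5.11, Zfp750 4.89, Alox5 4.56, Cxcl11 4.54, Lif 4.20 and Tmem125 4.15. The other large negative ones were Rep15 -1.85, Igf2bp1 -1.74, Vipr1 -1.63 and Mns1 -1.55. Stress response and histone genes differed by these amounts: Fgf21 -3.19, Sesn2 1.12, Psat1 -0.40, Mthfd2 -0.63, Atf5 -0.58, Hist1h2bc -0.94, Hist1h4i -0.90 and Hist2h2be -1.24. Opposed genes and genes called in 1 or both backgrounds had Rnf169 1.47, Trim59 -1.23, Klhl42 0.83, Cdyl2 0.80, Tmc1 -2.25, Dscaml1 1.29, Map3k20 1.40, Sstr2 -1.18, Trim66 -0.71, Scnm1 -0.83, Tsku 0.82, Arfgef3 0.53 and Gpt2 -0.28. Genes of the granule lineage, death regulators, immediate early and cholesterol genes had Pax6 -0.63, Gas1 -0.54, Hhip 0.70, Cdkn1b -0.75, Stmn2 -0.47, Bcl2l11 0.93, Fosl2 1.19 and Sqle -0.50. Markers of other cells and of the interferon response had Olig2 0.80, Hepacam 0.86, Laptm5 0.86, Slc32a1 0.74, Rgs5 0.49 and Tap1 1.95.

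In 14 of 282 sets of 4 or 5 libraries of 1 genotype the highest or lowest library stood far from the rest; chance gives about 1 in 20. Replicate 2 of the Atr-deleted p53 group, the library rich in mitochondrial RNA, held 6 of the 14: Fgf21 at 2.44, Klhl42 at 15.8, Ndc80 at 27, Pax6 at 188, St18 at 48.8 and Tsku at 22.5 CPM. Without that library 3562 differences were called. In other Atr-deleted p53 libraries Alox5 was at 0.481 CPM in replicate 1 and Scnm1 at 18.9 CPM in replicate 4. In the Atr-deleted Bax Bak group Bax was at 24.7 CPM in replicate 1, Stc2 at 7.31 in replicate 2 and Tap1 at 19.3 in replicate 3. In the Bax Bak controls Otx2, a choroid plexus marker, was at 51.4 CPM in replicate 1, Rgs5 at 156 in replicate 3 and Mns1 at 43.7 in replicate 4.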

How the results depend on the processing

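No paired analysis was possible because the labels give no replicate number that ties samples across groups. With DESeq2, 344 genes were called in the p53 background and 144 in both. At an adjusted p below 0.01 the counts were 1172 interactions, 3977 calls in the Bax Bak background, 19 in the p53 background, 1860 of the mean effect, 1109 Bax Bak only, 13 in both and 177 opposed. With the p53 control of series 1843 alone they were 454 interactions, 24 in the p53 background, 2297 of the mean, 408 Bax Bak only, 12 in both and 40 opposed, the spread of the lone control being taken from the other groups. With those of series 1845 alone, 267 were called in the p53 background, 75 in both and 711 opposed. Separate fits gave 8 calls in the p53 background and 7756 in the Bax Bak background. In these the cause was not tested, and several also differed from the main fit in the number of libraries or in the threshold. Keeping the p53 controls of a single series changed the series and the number of controls together. Leaving out each library in turn gave 1628 to 3562 interactions, 5076 to 7331 calls in the Bax Bak background, 18 to 267 in the p53 background, 2973 to 4708 of the mean, 1540 to 3239 Bax Bak only, 14 to 75 in both, 63 to 152 in both by the wide definition and 118 to 711 opposed. The libraries that moved one of these counts by over 1.5 times were p53 controls 1, 2 and 3, Atr-deleted p53 replicates 4 (141 calls in the p53 background, 66 in both, 152 wide) and 5 (34, 23 and, opposed, 495) and Atr-deleted Bax Bak replicate 5 (43 and 25). Higher differences, 1465 in all, numbered 957 and 918 without Atr-deleted Bax Bak replicates 2 and 5 and 958 and 859 without p53 controls 2 and 3. The 8 strictly opposed genes became 4 without Bax Bak control 3 or 4, 5 without Atr-deleted Bax Bak replicate 1, 2 or 5 or Atr-deleted p53 replicate 1 or 5, and 53, 2 and 1 without p53 controls 1, 2 and 3. The 18 genes of the p53 background only became 11 without Atr-deleted Bax Bak replicate 1 or 4, 9 without 2 or 5, 104, 2 and 5 without p53 controls 1, 2 and 3, and 35 and 5 without Atr-deleted p53 replicates 4 and 5. Of the 2929 interactions, DESeq2 shared 2924, limma-voom 2786, the fits with Bax Bak controls of series 1842 or 100019 only 2089 and 1798, those with p53 controls of series 1843 or 1845 only 419 and 2664, and those that left out 1 library 1602 to 2771. Among named genes no called difference changed sign, but with 1 library left out the call was kept in 5 of 16 fits for Atf5, 3 for Gpt2, 7 for Trim66, 6 for Rgs5 and 13 for Arfgef3.

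Uncalled interactions changed sign as follows, with the cause not tested. Upper-quartile scaling gave Alas2 0.0045, Aldh1l2 0.016 and Trp53 0.0024. With limma-voom Alas2 was 0.26 and Th 1.11. With Bax Bak controls of series 1842 only Alas2 was 0.58, Cfap58 -0.072, Col2a1 -0.15, Grin2b -0.12 and Th 2.22, and with those of 100019 only Aldh1l2 was 0.041, Lat2 0.0071, St18 0.030 and Trp53 0.063. With the p53 control of series 1843 only Aldh1l2 was 0.057, Cfap58 -0.20, Lat2 0.012 and Th 0.73, and with those of 1845 only Alas2 was 0.15, Col2a1 -0.044, Fzd7 0.015 and Pdlim1 0.024. Without genes that share over 50% of words Alas2 was 0.0030 and Aldh1l2 0.0075. Leaving out each library gave ranges of -0.24 to 0.27 for Alas2, -0.058 to 0.021 for Aldh1l2, -0.28 to 0.16 for Atf3, -0.13 to 0.015 for Bax, -0.11 to 0.19 for Cfap58, -0.087 to 0.23 for Col2a1, -0.31 to 0.015 for Fzd7, -0.053 to 0.10 for Grin2b, -0.23 to 0.061 for Lat2, -0.27 to 0.024 for Pdlim1, -1.43 to 0.98 for Th and -0.13 to 0.068 for Trp53. Depth limits the genes of a few counts, such as Fgf21 in controls, where the size of a fold is poorly fixed.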

Other observations

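Of 32 granule neuron genes 13 fell and 3 rose in the Bax Bak background (against 16.8% and 17.3% of all genes) and 2, Grin2b and Tiam1, fell in the p53 background, with medians of -0.24 and -0.27. Differences were called lower for 6, among them Cdkn1b, the p27 inhibitor of cyclin-dependent kinases (-0.75) and Stmn2, a tubulin-binding protein of growing axons (-0.47), and higher for 1 (0 to 3 with 1 library left out). Cholesterol synthesis genes fell in 16 of 20 cases in the Bax Bak background (against 16.8% of all genes), with a median of -0.40 against -0.12 in the p53 background. With p53 deleted edgeR and limma-voom called none, DESeq2 1 lower, and 6 reached an unadjusted p under 0.05. The difference was called lower for 9 of the 20 (against 8.05% of all genes), with Sqle, squalene epoxidase, at -0.50.

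Genes of the two-cell embryo, a family of near-identical copies whose counts are uncertain, were summed. Their level was 0.753 to 1.18 CPM in the Bax Bak controls, 5.81 to 18.6 in their Atr-deleted partners, 1.05 to 1.33 in the p53 controls and 0.945 to 1.88 in the Atr-deleted p53 libraries. Of 7 measured members 6 were called higher in the Bax Bak background (against 17.3% of all genes). For the difference edgeR called 0 of 7 (2 at an unadjusted p under 0.05), DESeq2 2 and limma-voom 3.

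Mitochondrially encoded genes had medians of 0.83 and 0.66 with 0 of 13 called by edgeR in either background (8 and 2 at an unadjusted p under 0.05), while DESeq2 called 1 higher in each background and limma-voom 8 higher in the Bax Bak background. Their sums were 18220 to 25730 and 34320 to 43240 CPM in the Bax Bak pair and 21350 to 33080 and 24480 to 97360 CPM in the p53 pair. Replicate 2 of the Atr-deleted p53 group held the highest sum, and without it the p53-background median was -0.018. RNA of the Y chromosome was present in 3 of 4 Bax Bak controls, 2 of 5 of their Atr-deleted partners, 3 of 3 p53 controls and 3 of 4 Atr-deleted p53 libraries, so the groups were not balanced for sex.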
